A study of Sus scrofa with 10 samples.

Results

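The amino acid transporter families described here are the pig genes of the SLC1, SLC3, SLC6, SLC7, SLC36, SLC38 and SLC43 families. They were taken by symbol, as every row of the expression table whose gene symbol begins with SLC1A, SLC3A, SLC6A, SLC7A, SLC36A, SLC38A or SLC43A. The rule found 59 of 25880 genes. Of these, 58 are transporters or transporter subunits, and 1, SLC7A6OS, carries the name of its neighbour SLC7A6 without being a transporter. By family, SLC1 has 7 members, SLC3 has 2, SLC6 has 18, SLC7 has 13, SLC36 has 4, SLC38 has 11 and SLC43 has 3. SLC6A16 was not analysed here.

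RNA was sequenced from 9 single tissues and 1 pool of tissues of the Northeast Min pig, a domestic breed, at 60 days of age. The single tissues were heart, liver, spleen, lung, kidney, psoas major muscle, longissimus dorsi muscle, subcutaneous adipose tissue and ovary. The labels name no treatment or genotype, and they do not say how many animals gave the tissues or whether tissues came from the same animal. With 1 library per tissue there is no replicate error, so no test was run and no p-value, SD or interval is given. Differences are therefore described by size alone, and levels within 2-fold of each other on the FPKM + 1 scale are not called different.

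Levels are FPKM, fragments per kilobase of transcript per 1000000 mapped fragments, a measure already divided by transcript length, so that levels of different genes can be set side by side. The FPKM of a library summed to between 292495 in kidney and 369254 in longissimus dorsi. The smallest steps between low values in short genes gave rough depths, in units of 1000000 fragments, from 11.5 in psoas major and kidney to 31.5 in lung, uncertain by a factor of 2. The marker lists gave, among others, 4560 summed FPKM of 8 proximal tubule genes in kidney and 45230 of 6 hepatocyte genes in liver. Single markers were low in the tissue they mark, with SERPINA1 at 0.550 FPKM in liver, MUC5B at 0.381 in lung and BMP15 at 0.269 in ovary, where FOXL2 is listed at 0. Some genes that cells in general use are listed at 0 in this table, for example RRAGA in all 9 tissues, so a 0 is given below as a listed value and never as absence. Of the 531 member values in the 9 tissues, 95 are listed at 0, in 26 members. In bulk tissue, fewer cells of a type and less RNA per cell cannot be told apart.

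As background, amino acids enter and leave cells through carrier proteins, and the families differ in what drives them. SLC1 and SLC6 carriers couple uptake to the sodium gradient, SLC36 carriers to protons, and SLC38 carriers move neutral amino acids with sodium, in some members against a proton. SLC7 light chains are exchangers that work as heteromers with an SLC3 heavy chain, which brings them to the membrane, whereas the cationic SLC7 carriers work alone. In kidney the proximal tubule takes filtered amino acids back through apical carriers and releases them through basolateral exchangers. The liver takes up amino acids for urea and glucose synthesis, and muscle both stores glutamine and exports it.

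Of the 59 members, 53 reached 1 FPKM in at least 1 of the 9 tissues, against 60.4% of all genes. Of those 53, 12 reached 1 FPKM in all 9 tissues (22.6%), where 49.0% of all detected genes did. These 12 were SLC1A5, SLC3A1, SLC3A2, SLC6A8, SLC7A2, SLC7A6, SLC7A7, SLC38A2, SLC38A6, SLC38A9, SLC38A10 and SLC7A6OS. Another 12 (22.6%) reached 1 FPKM in a single tissue, where 10.9% of all detected genes did. They fell to ovary (5 members), kidney (4), and lung, spleen and adipose tissue (1 each). Among the members that stayed below 1 FPKM in every tissue were SLC6A5, SLC6A13, SLC7A14, SLC36A3 and SLC38A11, with highest values from 0.129 to 0.776 FPKM.

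The number of members at 1 FPKM or more was highest in ovary and lowest in longissimus dorsi. Ovary had 40 of 59, where 50.9% of all genes were detected. Lung and kidney had 32 each, with 49.4% and 46.0% of all genes detected. Adipose tissue had 30 (44.1% of all genes), spleen 28 (46.4%) and psoas major 26 (39.6%). Liver had 24 (37.9%), heart 23 (41.6%) and longissimus dorsi 20 (37.1%). Ovary, at 67.8% of the members, stood furthest above its all-gene share. Heart (39.0%) and longissimus dorsi (33.9%) lay near theirs, and the small gaps are not read as a difference.

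**Figure D1:**
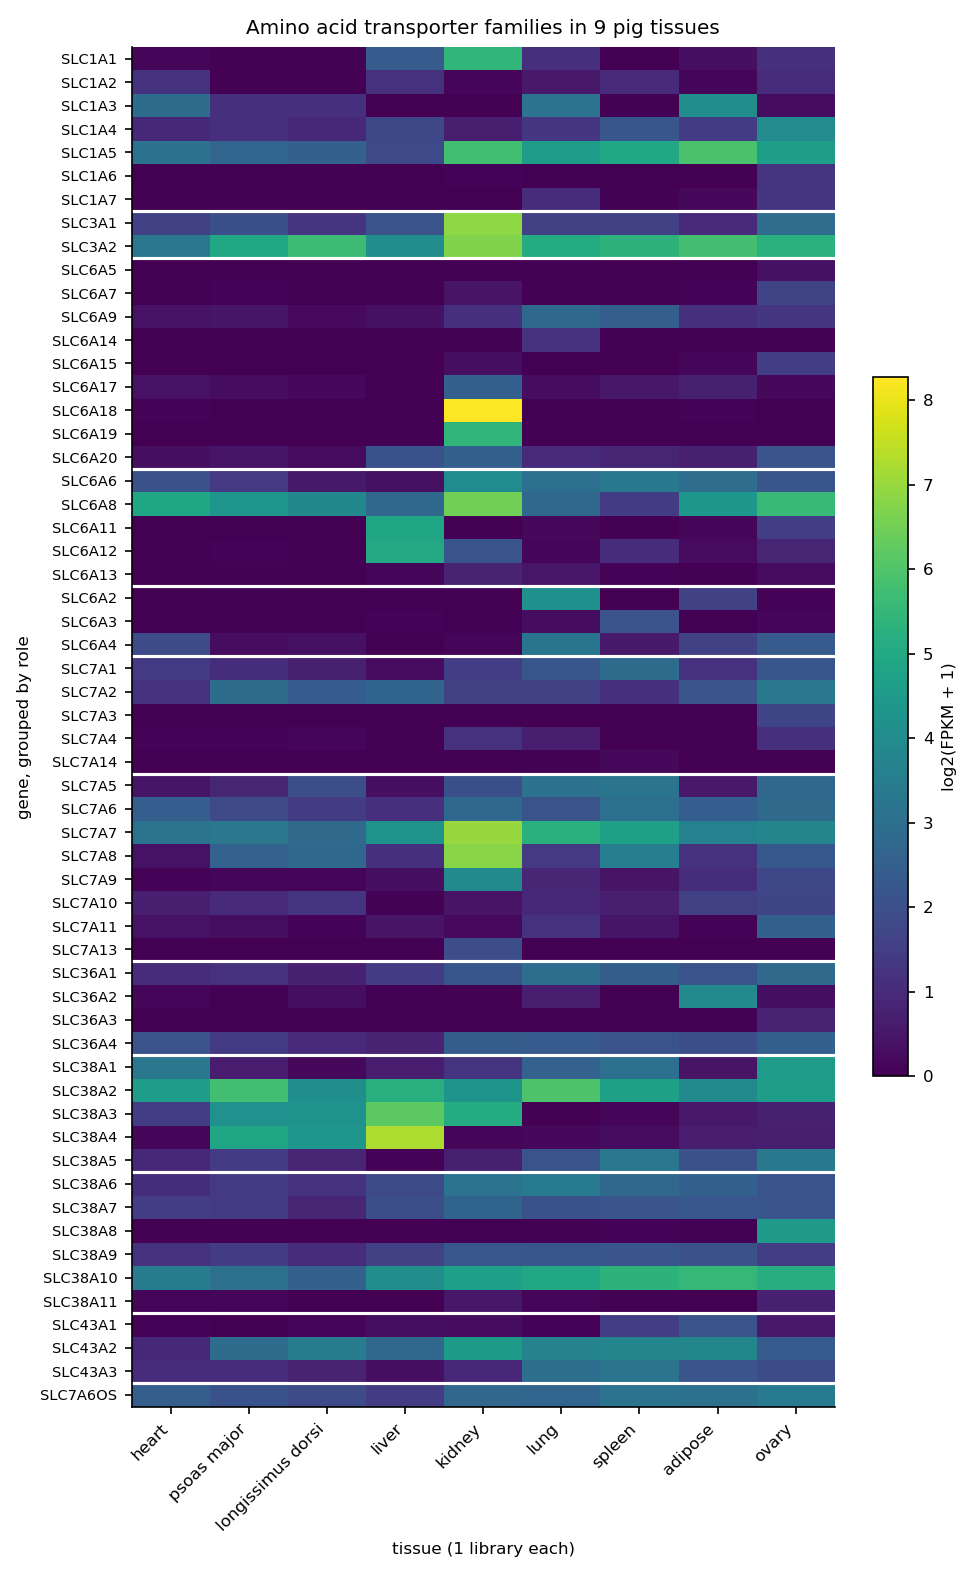
Level of 58 of the 59 members (rows, grouped by role) in the 9 single tissues (columns, 1 library each), as log2(FPKM + 1) on the colour scale. Kidney holds the brightest rows, led by SLC6A18 at 308 FPKM, and liver the brightest SLC38 row, SLC38A4 at 152 FPKM.

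Summed over the 58 transporters, kidney stood well above the other tissues. Its transporters summed to 1183 FPKM, or 0.404% of the library's FPKM. Liver followed at 418 FPKM (0.124%), ovary at 354 (0.115%), lung at 324 (0.108%), adipose tissue at 308 (0.102%) and spleen at 284 (0.0855%). As deposited the striated muscles were lowest, with 213 FPKM in psoas major (0.0671%), 173 in longissimus dorsi (0.0467%) and 135 in heart (0.0411%). Without its leading member SLC6A18 kidney kept 875 FPKM and was still first. Liver without SLC38A4 kept 266 FPKM. With every tissue's leading member left out, ovary (306) lay above liver. Lung (262), adipose tissue (250) and spleen (244) lay close below it. By the same measure liver was second with median-of-ratios size factors (477) and with quantile normalisation (337). With equal library sums (253) it lay below ovary, lung and adipose tissue. Kidney remained first under each of the 3 rescalings of the libraries, though with median-of-ratios size factors the gap narrowed to 975 FPKM against 749 in liver. The place of the skeletal muscles depended on the scaling. With median-of-ratios size factors longissimus dorsi (327 FPKM) and psoas major (311) lay above adipose tissue (283), ovary (219), lung (213) and spleen (202), and heart (158) stayed lowest. With quantile normalisation psoas major (285) and longissimus dorsi (278) lay above lung (257), ovary (255) and spleen (227). Those factors moved the median log2 level by 0.84 in liver, 0.92 in longissimus dorsi, 0.54 in psoas major, 0.22 in heart, -0.13 in adipose tissue, -0.28 in kidney, -0.49 in spleen, -0.61 in lung and -0.69 in ovary.

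**Figure D2:**
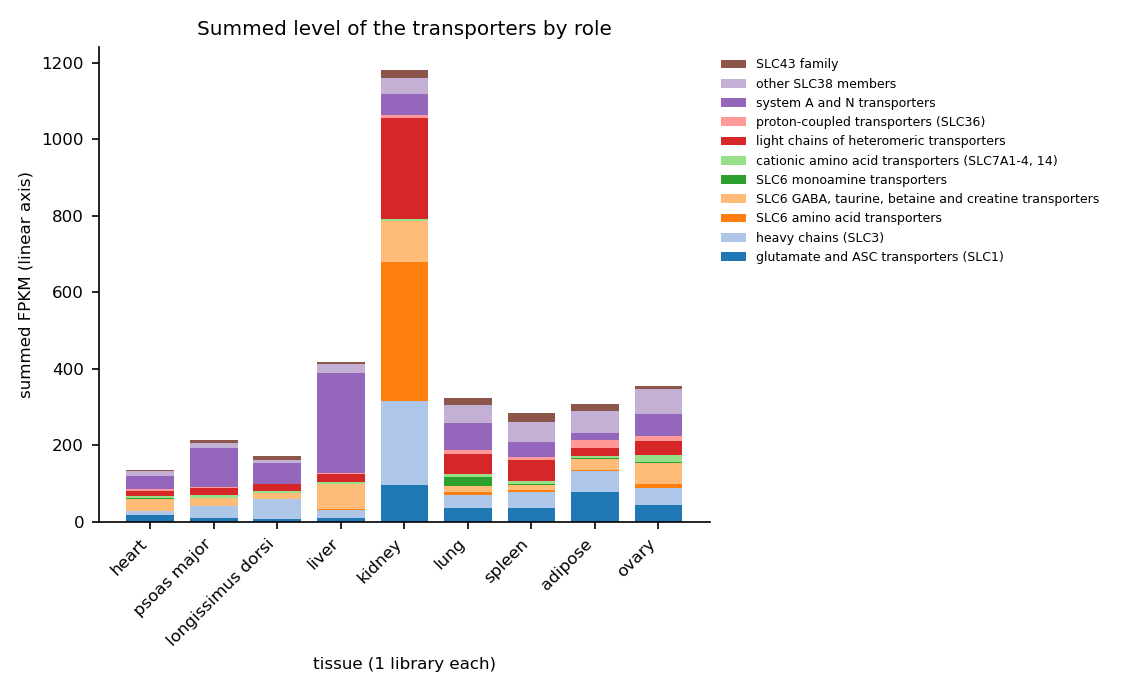
Summed FPKM of the 58 transporters in each tissue (bars, linear axis from 0, 1 library each), divided by role (colours). The kidney bar reaches 1183 FPKM, most of it SLC6 amino acid carriers, heavy chains and light chains, while the liver bar is mostly system A and N carriers, at 260 of 418 FPKM.

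The tissue of the highest level was found with both skeletal muscles averaged into 1 class, which leaves 8 classes. Kidney was highest for 17 of the 53 detected members (32.1%), where 13.0% of all detected genes peaked. Ovary was highest for 14 (29.0% of all genes), lung for 7 (15.0%), spleen for 5 (19.2%), adipose tissue for 5 (6.72%), liver for 4 (5.67%), heart for 1 (7.04%) and skeletal muscle for 0 (4.38%). With median-of-ratios size factors these counts became 15 in kidney, 9 in ovary, 10 in liver, 5 in lung, 5 in spleen, 6 in adipose tissue, 2 in heart and 1 in muscle. Kidney still led, and ovary and liver changed places. Of all detected genes, 11.08% then peaked in kidney, 16.31% in ovary, 16.56% in liver, 9.068% in lung and 14.41% in spleen. The shares were 7.892% in adipose tissue, 10.17% in heart and 14.51% in muscle. Liver thus rose and ovary fell over all genes too, so these shifts are not particular to the members. The 12 members whose top class differed under those factors led their next class by at most 1.72-fold as deposited, and they include SLC38A2, SLC7A2, SLC6A20 and SLC38A9.

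Enrichment in a class meant an FPKM + 1 no less than 5 times the value in each of the other 7 classes. By that rule 11 of 53 members (20.8%) were enriched, where 6.49% of all detected genes were. Kidney had 5 of them (1.04% of all genes), namely SLC6A18, SLC6A19, SLC3A1, SLC7A8 and SLC1A1. Liver had 3 (1.51%), namely SLC38A4, SLC6A11 and SLC6A12. Lung had SLC6A2 (0.735%), adipose tissue SLC36A2 (0.345%) and ovary SLC38A8 (1.47%). No member was enriched in heart (0.345% of all genes), spleen (0.428%) or skeletal muscle (0.620%).

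Among the apical carriers of neutral amino acids, SLC6A18 gave the highest level of any member in any tissue. SLC6A18 is known for luminal uptake of neutral amino acids in the kidney. It stood at 308 FPKM in kidney, at 0.0472 in heart, 0.0470 in adipose tissue and 0.0183 in longissimus dorsi, and is listed at 0 in the other 5 tissues. The kidney level was 295 times the next class on the FPKM + 1 scale, a ratio that the added 1 keeps down. The gene (ENSSSCG00000017117) lies on chromosome 16, 79278067 to 79292503, on the minus strand of Sscrofa11.1.

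SLC6A19, the main sodium-coupled carrier of neutral amino acids in the renal and intestinal brush border, stood at 42.3 FPKM in kidney. It stood at 0.00703 in liver and is listed at 0 in the other 7 tissues. Its gene (ENSSSCG00000017120) occupies 79292962 to 79310904 of chromosome 16 on the minus strand, 0.459 kb from SLC6A18. The 2 genes thus share strand, neighbourhood and tissue, and in kidney SLC6A18 was 7.28 times SLC6A19. CLTRN, the accessory protein that both carriers need at the renal surface, stood at 258 FPKM in kidney and 17.9 in liver, and at 3.24 or less elsewhere.

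The proline carrier SLC6A20 was much lower and less bound to kidney. It stood at 4.93 FPKM in kidney, 3.50 in ovary, 3.27 in liver, 0.965 in lung, 0.791 in spleen, 0.653 in adipose tissue, 0.390 in psoas major, 0.267 in heart and 0.178 in longissimus dorsi. Kidney, ovary and liver lay within 2-fold, and with median-of-ratios size factors or quantile normalisation liver was highest. The remaining SLC6 amino acid carriers were low in every tissue. The glycine carrier SLC6A9 reached 5.87 FPKM in lung and 4.65 in spleen, and SLC6A17, a vesicular carrier of neutral amino acids, 4.85 in kidney. CCDC24 overlaps 20.6% of the SLC6A9 model on the opposite strand. It peaked in ovary at 3.03 FPKM and had r = 0.84 with SLC6A9 over the 9 tissues, and its part was not tested. The proline carrier SLC6A7 reached 2.22 in ovary, SLC6A15 1.86 in ovary, and the broad-range carrier SLC6A14 1.27 in lung.

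SLC1A1, the epithelial and neuronal glutamate carrier, also peaked in kidney. Its level was 42.4 FPKM in kidney, 4.15 in liver, 1.17 in lung, 1.15 in ovary, 0.276 in adipose tissue, 0.114 in heart, 0.040 in psoas major and 0.0353 in longissimus dorsi, and it is listed at 0 in spleen. Kidney was 8.43 times liver on the FPKM + 1 scale. With median-of-ratios size factors or quantile normalisation the lead fell below 5-fold, with kidney still highest.

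SLC3A1, the heavy chain of the cystine and dibasic amino acid exchanger, stood at 116 FPKM in kidney. Elsewhere it lay between 1.04 in adipose tissue and 6.81 in ovary, and it was above 1 FPKM in every tissue. Its apical light chain SLC7A9 stood at 14.6 in kidney, 2.50 in ovary, 1.13 in adipose tissue, 0.859 in lung, 0.357 in spleen, 0.267 in liver, 0.116 in longissimus dorsi, 0.0873 in psoas major and 0.0526 in heart. SLC7A9 in kidney was 4.47 times ovary on the FPKM + 1 scale, just short of the 5-fold rule, and passed it with median-of-ratios size factors and with quantile normalisation. SLC7A13, a second partner of SLC3A1 in the proximal tubule, stood at 2.87 in kidney and is listed at 0 in the other 8 tissues. In kidney the heavy chain was thus 6.61 times its 2 light chains summed (116 against 17.5 FPKM). The SLC3A1 model overlaps PREPL on the opposite strand over 4.91% of its length. PREPL peaked in ovary at 27.2 FPKM and had r = 0.62 with SLC3A1 over the 9 tissues. Its part in the SLC3A1 values was not tested.

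**Figure D3:**
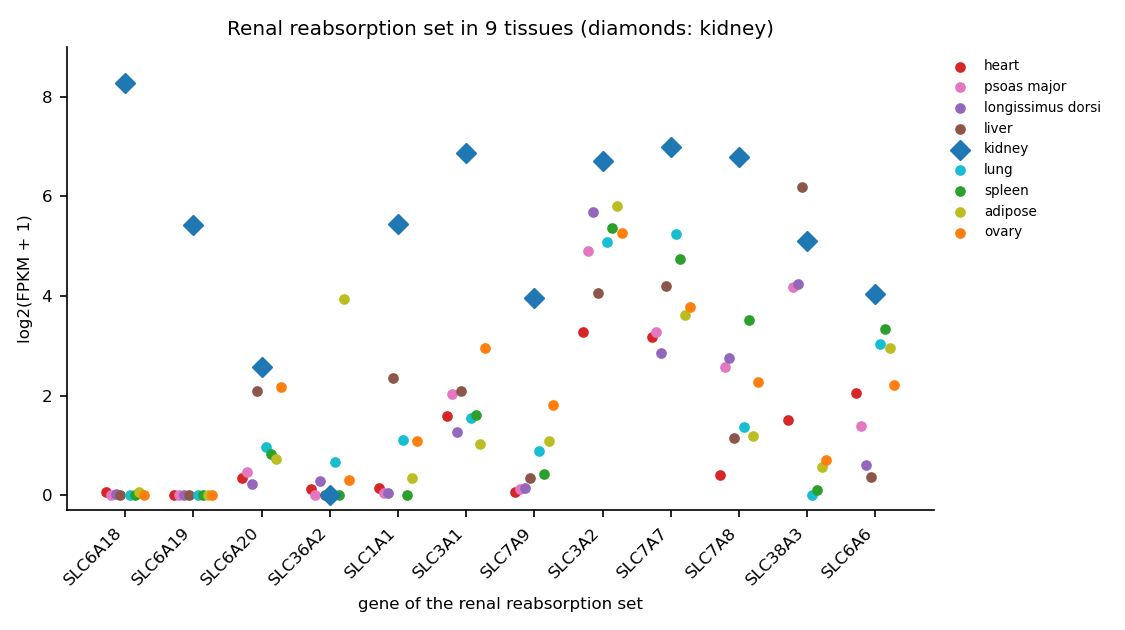
Level of 12 carriers with a described role in renal amino acid reabsorption (x axis) in the 9 tissues (coloured points, 1 library each, kidney as diamonds), as log2(FPKM + 1). Kidney is highest for 10 of 12, and the exceptions are SLC36A2, highest in adipose tissue, and SLC38A3, highest in liver.

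Those 12 carriers form a list drawn up from textbook renal physiology, with earlier results of these data known. Kidney was highest for 10 of them (13.0% of all detected genes), and 5 were enriched there (1.04% of all). The median log2 difference of kidney from the mean of the other 7 classes was 3.25 over the 12, 0.16 over the 53 detected members and 0.06 over all detected genes. Of the 10, SLC6A20 moved to liver with median-of-ratios size factors and with quantile normalisation. SLC36A2, the high-affinity proton-coupled carrier of glycine and proline, is listed at 0 in kidney. The 8 proximal tubule markers summed to 4560 FPKM in kidney and 1092 in liver, 213 of it from GATM, and to 115 or less in the other tissues. All 8 were above 0 in kidney, with a lowest value of 87.4 FPKM. The part of tubule cell numbers in the kidney levels was not tested.

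SLC3A2, the heavy chain shared by most SLC7 light chains, was high in most tissues. It stood at 104 FPKM in kidney, 54.9 in adipose tissue, 50.5 in longissimus dorsi, 40.0 in spleen, 37.6 in ovary, 33.1 in lung, 29.2 in psoas major, 15.6 in liver and 8.71 in heart. Each step in that order was under 2-fold, while kidney and heart at its ends were far apart. SLC3A2 had the highest transporter value in longissimus dorsi, and in spleen it stood level with SLC38A10 (39.8).

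SLC7A7, the basolateral exporter of cationic amino acids, had the highest value of the SLC3A2 light chains in each of the 9 tissues. It was within 2-fold of SLC7A8 in kidney, longissimus dorsi and psoas major. In heart and ovary it was within 2-fold of SLC7A6 (4.51 and 6.29 FPKM). SLC7A7 stood at 126 FPKM in kidney, 37.0 in lung, 25.7 in spleen, 17.5 in liver, 12.7 in ovary, 11.4 in adipose tissue, 8.67 in psoas major, 8.02 in heart and 6.23 in longissimus dorsi. Its share of the summed light chains ran from 34.4% in longissimus dorsi to 84.9% in liver. The model of SLC7A7 (chromosome 7, 76176590 to 76236149, plus strand) overlaps MMP14, MRPL52 and OXA1L on the opposite strand. Library strandedness is not given in the sources used here, so reads of SLC7A7 and these genes cannot be told apart where they overlap. Over the 9 tissues log2 levels of SLC7A7 correlated at r = 0.12 with MMP14, -0.50 with MRPL52 and -0.11 with OXA1L, as a description.

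SLC7A8, the basolateral exchanger of neutral amino acids, was nearly as high as SLC7A7 in kidney and followed a different order elsewhere. It stood at 110 FPKM in kidney, 10.5 in spleen, 5.75 in longissimus dorsi, 5.003 in psoas major, 3.86 in ovary, 1.59 in lung, 1.27 in adipose tissue, 1.23 in liver and 0.331 in heart. Kidney was 9.68 times spleen on the FPKM + 1 scale, so SLC7A8 met the 5-fold rule and SLC7A7, at 3.36 times lung, did not.

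SLC7A5, the leucine exchanger of dividing cells, was low throughout. It stood at 8.14 FPKM in spleen, 7.74 in lung, 5.83 in ovary, 3.05 in kidney, 2.99 in longissimus dorsi, 0.868 in psoas major, 0.486 in adipose tissue, 0.385 in heart and 0.258 in liver. Spleen and lung were not separated, and scaling to equal library sums put lung first. SLC7A6, an exchanger of cationic for neutral amino acids, ranged from 1.21 in liver to 7.07 in spleen. SLC7A6OS overlaps it on the opposite strand over 4696 bp, ranged from 1.80 in liver to 9.85 in ovary, and had r = 0.93 with it over the 9 tissues. SLC7A11, the cystine and glutamate exchanger, reached 4.95 in ovary and 1.27 in lung and stayed below 1 in the other 7 tissues. SLC7A10, a carrier of small neutral amino acids, reached 2.35 in ovary and 1.94 in adipose tissue. LRP3 overlaps 18.4% of the SLC7A10 model on the opposite strand. It also peaked in ovary, at 10.2 FPKM, and had r = 0.93 with SLC7A10. Its part in the SLC7A10 values was not tested.

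**Figure D4:**
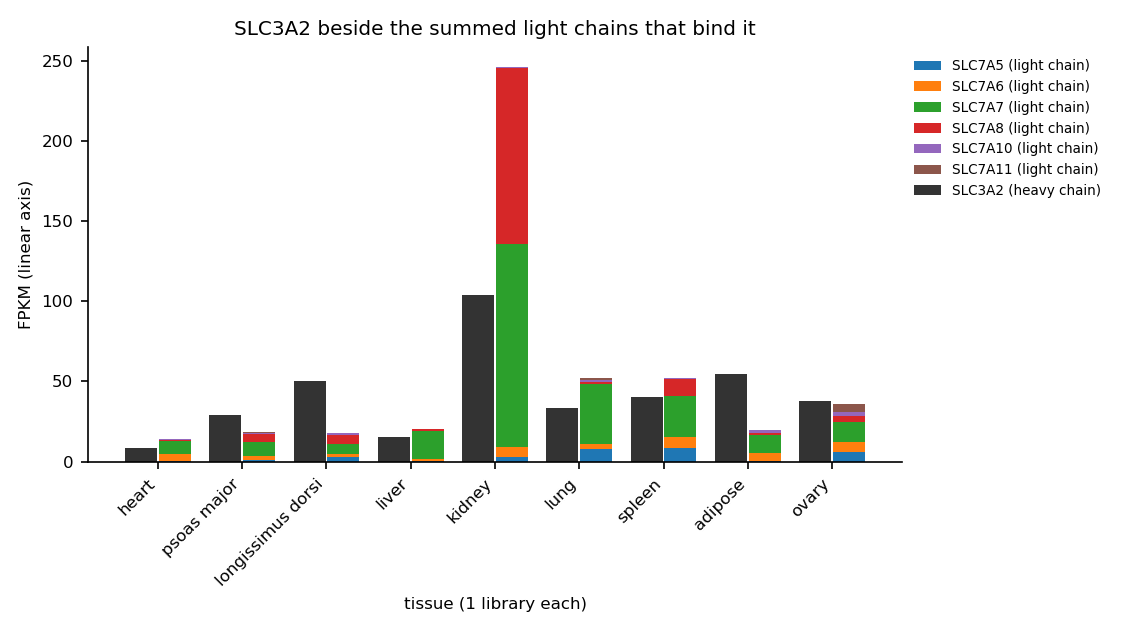
FPKM of the heavy chain SLC3A2 (dark bars) and of its 6 light chains stacked (coloured bars) in each tissue, on a linear axis from 0, 1 library each. Light chains exceed the heavy chain in kidney (247 against 104 FPKM), and the heavy chain exceeds the light chains in adipose tissue and both skeletal muscles.

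The balance of heavy and light chain RNA varied by tissue. SLC3A2 divided by its 6 summed light chains gave 0.423 in kidney, 0.614 in heart, 0.638 in lung, 0.759 in liver, 0.763 in spleen and 1.04 in ovary. The ratio was 1.59 in psoas major and 2.79 in both longissimus dorsi and adipose tissue. Kidney thus had over 2 light chain units of RNA per unit of SLC3A2, and longissimus dorsi and adipose tissue the reverse. A scaling of whole libraries leaves these ratios as they are. Across the 9 tissues, SLC3A2 tracked SLC7A8 (r = 0.77 on log2 values, rho = 0.68) more closely than SLC7A7 (r = 0.52, rho = 0.28), a description in which kidney is far from the other points. SLC3A1 and SLC7A9 had r = 0.91 with a rank correlation of 0.33, again with kidney apart.

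The system A and N carriers of the SLC38 family summed to 260 FPKM in liver, 102 in psoas major, 70.7 in lung, 57.6 in ovary, 54.5 in longissimus dorsi and 54.2 in kidney, and to 41.1 or less in the other 3 tissues. SLC38A4, a sodium-coupled carrier of neutral amino acids known from hepatocytes, stood at 152 FPKM in liver, 29.0 in psoas major and 19.1 in longissimus dorsi. In the other 6 tissues it lay between 0.0722 in heart and 0.623 in ovary. Liver was 6.09 times the muscle mean on the FPKM + 1 scale, and 4.21 times with quantile normalisation. The gene (ENSSSCG00000026597) lies on chromosome 5, 77411559 to 77489302, minus strand.

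SLC38A3, a glutamine carrier that works in both directions, had the same 3 tissues high together with kidney. It stood at 72.2 FPKM in liver, 33.6 in kidney, 18.01 in longissimus dorsi, 17.1 in psoas major, 1.84 in heart, 0.646 in ovary, 0.481 in adipose tissue and 0.0850 in spleen, and it is listed at 0 in lung. The SLC38A3 model lies wholly within that of GNAI2 on the same strand. GNAI2 peaked in spleen at 199.7 FPKM, where SLC38A3 was near 0, and the log2 levels of the 2 genes had r = -0.87 over the 9 tissues.

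SLC38A2, the carrier of small neutral amino acids that cells raise when starved of them, was the most evenly spread of the high members. It stood at 62.0 FPKM in lung, 53.3 in psoas major, 35.6 in liver, 25.0 in spleen, 24.1 in ovary, 22.6 in heart, 18.4 in kidney, 16.4 in longissimus dorsi and 14.6 in adipose tissue. No step in the order reached 2-fold, and with median-of-ratios size factors liver was highest. Its neighbour SLC38A1, a glutamine carrier of brain and of dividing cells, stood at 22.9 in ovary, 8.93 in heart, 7.18 in spleen, 5.12 in lung, 1.41 in kidney, 0.577 in psoas major, 0.546 in liver, 0.355 in adipose tissue and 0.140 in longissimus dorsi. SLC38A1 and SLC38A4 were thus high in different tissues. SLC38A1 was highest in ovary, followed by heart, spleen and lung, which were not separated from each other. SLC38A4 was highest in liver, followed by skeletal muscle. SLC38A5, a glutamine exporter and importer, reached 9.27 in ovary and 8.57 in spleen. It shares 44.8% of its model with FTSJ1 on the opposite strand, which peaked in spleen at 10.02 FPKM (r = 0.77).

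Of the other SLC38 members, SLC38A8 met the 5-fold rule and SLC38A10 was high in most tissues. SLC38A8, a glutamine carrier best known from the eye and brain, stood at 21.4 FPKM in ovary and at 0.0644 or less in the other 8 tissues. Its gene (ENSSSCG00000039218) lies on chromosome 6, 4565105 to 4593591, plus strand. In the same library the 6 oocyte markers summed to 359 FPKM (3.80 to 18.7 elsewhere) and the 4 granulosa cell markers to 165 FPKM (6.94 or less elsewhere), and their part in the SLC38A8 value was not tested. SLC38A10, whose product lies inside the cell, stood at 44.2 in adipose tissue, 39.8 in spleen, 34.4 in ovary, 30.3 in lung, 24.2 in kidney, 16.1 in liver, 9.999 in heart, 7.39 in psoas major and 4.81 in longissimus dorsi. SLC38A9, the lysosomal arginine sensor upstream of mTORC1, was present in all 9 tissues at 1.09 to 3.70 FPKM. SLC38A6 ranged from 1.12 in heart to 9.30 in lung and SLC38A7, a lysosomal glutamine exporter, from 0.868 in longissimus dorsi to 5.38 in kidney.

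SLC1A5, the sodium-coupled exchanger that takes up glutamine, had the highest transporter value of adipose tissue, next to SLC3A2 at 54.9 FPKM. It stood at 58.9 FPKM there, 53.2 in kidney, 30.3 in spleen, 23.7 in ovary, 22.9 in lung, 7.74 in heart, 5.55 in psoas major, 4.81 in longissimus dorsi and 2.55 in liver. The first 5 tissues were within 2-fold of their neighbours in the order, and heart, muscle and liver lay lower by a step of 2.73-fold. Its relative SLC1A4, a carrier of alanine, serine and cysteine, stood at 15.0 in ovary and 3.62 in spleen and between 0.611 and 2.43 in the other 7 tissues.

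SLC1A3, the glutamate carrier best known from astrocytes, stood at 16.0 FPKM in adipose tissue, 7.98 in lung, 6.60 in heart, 1.19 in psoas major, 1.18 in longissimus dorsi, 0.211 in ovary and 0.0319 in spleen. It is listed at 0 in liver and kidney, the 2 tissues where SLC1A1 was highest. SLC1A2, the main glutamate carrier of brain, reached 1.31 in heart and 1.25 in liver. SLC1A6 and SLC1A7 reached at most 1.48 FPKM, both in ovary.

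SLC36A2 was the 1 member enriched in adipose tissue. It stood at 14.5 FPKM there, 0.604 in lung, 0.233 in ovary, 0.226 in longissimus dorsi and 0.0904 in heart, and is listed at 0 in kidney, liver, psoas major and spleen. Adipose tissue was 9.65 times the next class on the FPKM + 1 scale. The gene (ENSSSCG00000017086) lies on chromosome 16, 71662109 to 71689217, plus strand, and its end overlaps the start of SLC36A3 over 2848 bp. The 5 adipocyte markers summed to 8748 FPKM in adipose tissue and to 213 or less elsewhere, and their part in the SLC36A2 value was not tested. The lysosomal carrier SLC36A1 ranged from 0.696 in longissimus dorsi to 6.88 in lung, and SLC36A4 from 0.715 in liver to 4.86 in ovary.

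Of the SLC6 carriers of osmolytes, creatine and GABA, SLC6A11 and SLC6A12 were set apart in liver. SLC6A8 and SLC6A6 had their highest values in kidney but were not separated there from ovary and spleen, respectively. SLC6A8, the creatine carrier, stood at 89.3 FPKM in kidney, 47.8 in ovary, 28.3 in heart, 20.2 in adipose tissue, 19.3 in psoas major, 13.6 in longissimus dorsi, 5.97 in liver, 5.78 in lung and 1.68 in spleen. It had the highest transporter value in heart, next to SLC38A2 at 22.6, and in ovary, next to SLC3A2 at 37.6. Creatine is made from guanidinoacetate, the product of GATM, by GAMT. GATM stood at 254 FPKM in kidney and 213 in liver, against 10.8 or less elsewhere. GAMT stood at 330 in liver, where it met the 5-fold rule, 47.1 in longissimus dorsi, 23.8 in psoas major and 16.3 in kidney. Liver thus had the highest level of the last synthetic step, and for the uptake carrier it was not separated from lung and lay below the 6 tissues listed before it.

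SLC6A6, the taurine carrier, stood at 15.4 FPKM in kidney, 9.17 in spleen, 7.19 in lung, 6.74 in adipose tissue, 3.66 in ovary, 3.16 in heart, 1.62 in psoas major, 0.523 in longissimus dorsi and 0.286 in liver. Taurine is made from cysteine by CDO1 and CSAD. CDO1 was highest in liver (141 FPKM, next 36.7 in adipose tissue) and CSAD in adipose tissue (27.2, next 13.2 in liver). Liver thus had the highest level of CDO1 and, with longissimus dorsi, from which it was not separated, the lowest values of the carrier.

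SLC6A12, the betaine and GABA carrier, and SLC6A11, a GABA carrier best known from glia, were both enriched in liver. SLC6A12 stood at 30.6 FPKM in liver, 3.40 in kidney, 1.07 in spleen, 0.792 in ovary, 0.177 in adipose tissue, 0.103 in lung, 0.0657 in psoas major and 0.0190 in longissimus dorsi, and is listed at 0 in heart. SLC6A11 stood at 28.7 in liver, 1.87 in ovary and 0.133 in lung, at 0.0895 or less in 4 further tissues, and is listed at 0 in kidney and psoas major. BHMT, which consumes betaine to remake methionine, stood at 539 FPKM in liver and 210.3 in kidney and at 1.14 or less elsewhere. ABAT, which breaks down GABA, stood at 44.3 in kidney and 24.1 in liver, with 10.04 in ovary and 1.28 or less elsewhere.

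Monoamine carriers, the SLC6 members that move noradrenaline, dopamine or serotonin, summed highest in lung (25.3 FPKM, next 4.31 in ovary). SLC6A2, the noradrenaline carrier, stood at 16.8 FPKM in lung, 2.07 in adipose tissue and 0.0684 in ovary, and is listed at 0 in the other 6 tissues. Lung was 5.78 times adipose tissue on the FPKM + 1 scale, and under 5 times with median-of-ratios size factors, quantile normalisation or an added constant of 5. The serotonin carrier SLC6A4 stood at 8.33 in lung, 4.17 in ovary, 2.77 in heart and 2.105 in adipose tissue, and at 0.505 or less in the other 5 tissues. Beside these, the 7 neuron markers summed to 0.758 FPKM in lung, against 0.636 or less in 6 tissues, 20.2 in ovary and 49.2 in spleen. Of the noradrenaline-making enzymes, DBH is listed at 0 in all 9 tissues, and TH is listed at 0 in lung and in 6 others and reached at most 0.0738, in kidney. The 5 mast cell markers summed to 26.4 FPKM in lung, 17.4 in ovary, 13.1 in spleen and 11.5 in adipose tissue, and to 8.92 or less elsewhere, with CPA3 listed at 0 throughout, and their part in the SLC6A4 values was not tested. Endothelial markers (3 matched of 5) summed to 373 FPKM in lung and 263 in adipose tissue, the 2 tissues with SLC6A2 above 1 FPKM, and to 135 or less elsewhere, and their part was not tested. The dopamine carrier SLC6A3 stood at 3.38 in spleen and at 0.210 or less elsewhere. The neuron marker sum of spleen, the highest of the 9 tissues at 49.2 FPKM, rests on STMN2 at 47.4. In spleen 4 of the 7 neuron markers are listed at 0, and their part in the SLC6A3 value was not tested.

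The cationic carriers that work without a heavy chain were low everywhere. SLC7A2, the arginine carrier of liver and muscle, ranged from 1.19 FPKM in spleen to 9.03 in ovary, with 6.58 in psoas major, 5.37 in liver and 4.29 in longissimus dorsi. Ovary led as deposited, liver with median-of-ratios size factors and skeletal muscle with quantile normalisation. SLC7A1, the general arginine carrier, stood at 6.58 in spleen, 3.64 in lung and 3.62 in ovary, and at 0.195 in liver. SLC7A3 reached 2.29 in ovary and SLC7A4 1.26 in kidney. The SLC43 family had 1 member above 10 FPKM. SLC43A2, a facilitative carrier of large neutral amino acids, stood at 21.6 in kidney, 12.8 in adipose tissue, 12.4 in spleen, 11.9 in lung, 10.2 in longissimus dorsi, 6.57 in psoas major, 5.93 in liver, 4.09 in ovary and 0.957 in heart. SLC43A3, which carries purine bases, reached 8.02 in spleen and 6.89 in lung, and SLC43A1 reached 3.42 in adipose tissue.

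Kidney and liver, the 2 tissues with the largest sums, differed in which carriers were high. A gene was called when its log2(FPKM + 1) differed by at least 2, a 4-fold difference. Of 36 members tested, 12 were higher in kidney (33.3%), where 11.0% of all tested genes were. The largest log2 differences were 8.27 for SLC6A18, 5.64 for SLC7A8, 5.43 for SLC6A19, 4.76 for SLC3A1 and 3.93 for SLC1A5. The others were SLC6A8 (3.70), SLC6A6 (3.67), SLC7A9 (3.62), SLC1A1 (3.07), SLC7A7 (2.79), SLC3A2 (2.66) and SLC6A17 (2.52). Higher in liver were 3 of 36 (8.33%, against 3.83% of all genes), namely SLC38A4 (-7.11), SLC6A11 (-4.89) and SLC6A12 (-2.85). The median log2 difference was 1.27 over the members and 0.87 over all tested genes. With median-of-ratios size factors 10 were higher in kidney and 6 in liver, so that the kidney share of calls went from 80.0% to 62.5%, and the share over all genes from 74.2% to 43.9%.

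Heart and skeletal muscle differed most in system A and N carriers. A call needed a log2 difference of at least 2 from each of the 2 muscles. Of 27 members tested, 3 were higher in skeletal muscle (11.11%, against 1.91% of all genes), namely SLC38A4 at -4.52, SLC38A3 at -2.71 and SLC7A8 at -2.26. SLC38A1 was the 1 member higher in heart, at 2.89 (3.70%, against 3.01% of all genes). SLC43A2 at -2.23 and SLC3A2 at -2.02 were past the mean difference but missed it against psoas major. Median differences were 0.14 over the members and 0.41 over all tested genes.

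The 2 skeletal muscles were alike in most members. At a log2 difference of at least 1, a 2-fold difference, 1 of 27 members was higher in psoas major (3.70%, against 4.66% of all genes), SLC38A2 at 1.64. Also 1 of 27 was higher in longissimus dorsi (2.09% of all genes), SLC7A5 at -1.09. The SLC7A5 call was lost when libraries were scaled to equal sums (-0.94) and with an added constant of 5 (-0.45). SLC3A2 lay at -0.77 and the median over members at 0.37, against 0.27 over all tested genes. Each member rests on 1 library per muscle, and the difference between animals or muscle fibres within a muscle was not measured.

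Several members are neighbours on the chromosome. Within 500 kb of each other lay 11 adjacent pairs holding 19 members, and 2 of the 11 pairs shared their highest class. These were SLC6A18 with SLC6A19, and SLC7A8 with SLC7A7, 254 kb apart on chromosome 7, each with kidney highest. With median-of-ratios size factors SLC38A2 and SLC38A4 made 1 more such pair. The share of all adjacent gene pairs with the same highest class was not computed. The count of 2 of 11 is therefore not read as more than unrelated pairs would give. On chromosome 5, SLC38A1, SLC38A2 and SLC38A4 lie in a row on the minus strand, with gaps of 55.1 and 284 kb, and were highest in ovary, lung and liver. SLC6A12 and SLC6A13 are 3.68 kb apart on chromosome 5, and liver had 30.6 FPKM of the first and 0.0880 of the second. SLC43A1 and SLC43A3 are 53.1 kb apart on chromosome 2 and were highest in adipose tissue and spleen. SLC6A3, 57.7 kb from SLC6A18, is listed at 0 in kidney.

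**Figure D5:**
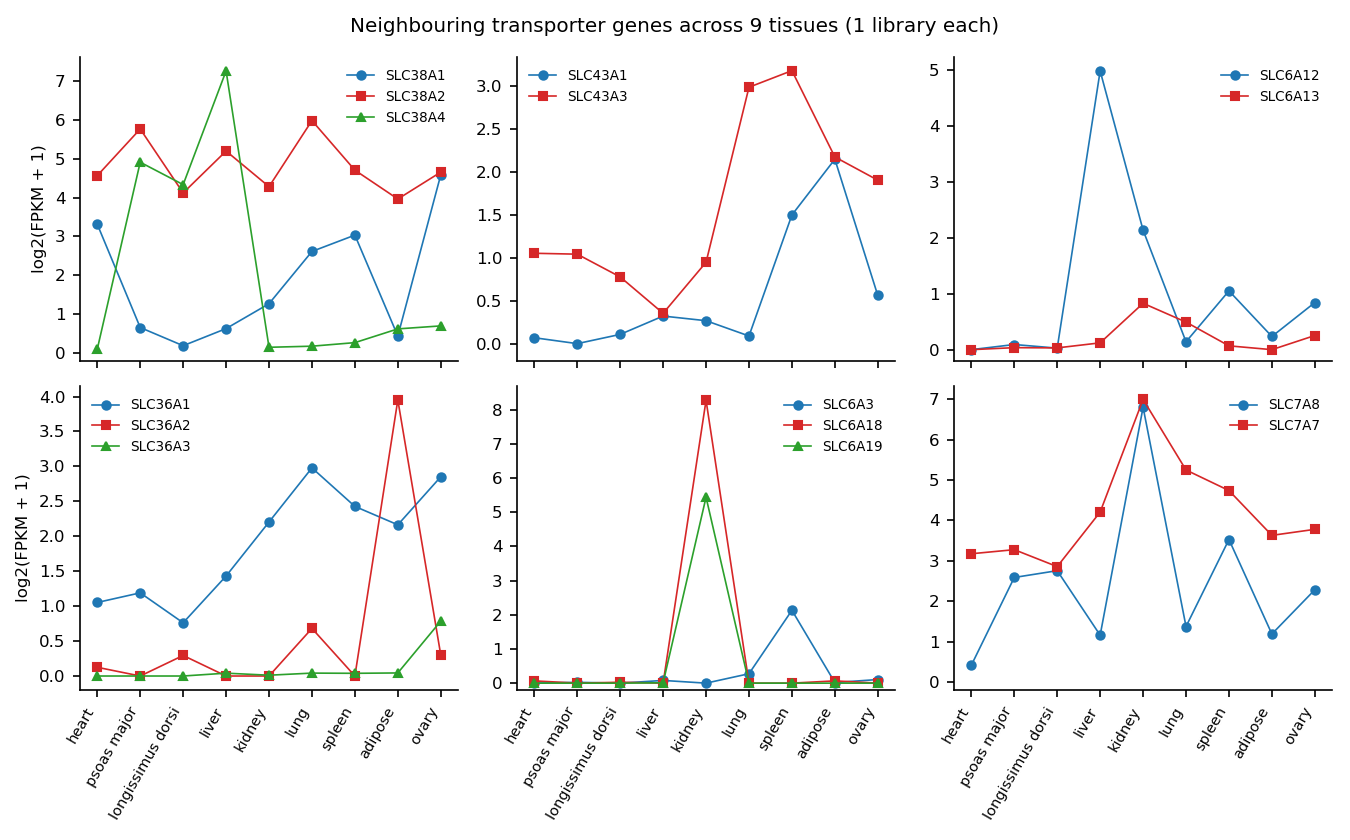
Level of neighbouring members in 6 stretches of the genome (panels), as log2(FPKM + 1) by tissue (x axis, 1 library each); lines join the points of 1 gene and carry no order of tissues. SLC6A18 and SLC6A19 are both highest in kidney, whereas SLC38A1, SLC38A2 and SLC38A4 have different highest tissues.

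Other genes of amino acid handling were read from lists of related pathways. Of 14 listed trafficking partners and other carriers, 11 were detected, 5 were highest in kidney (13.0% of all detected genes) and 1, CLTRN, was enriched (9.09%, against 6.49% of all detected genes). Of 20 genes of the ATF4 pathway, by which cells raise amino acid supply when starved of amino acids, 19 were matched and detected and 3 were enriched (15.8%, against 6.49% of all detected genes). These were ATF5, a transcription factor, in liver (376.9 FPKM, next ovary 13.3), ASNS, asparagine synthetase, in ovary (65.9, next adipose tissue 10.7) and CEBPB in kidney, at 6.03, which is listed at 0 in the other 8 tissues and in the pool. The CEBPB call rests on those listed zeros, which are not read as absence. Of the 20 listed genes of amino acid sensing by mTORC1, 18 were detected and 0 were enriched (6.49% of all). The leucine sensor SESN1 had its highest value in adipose tissue (67.2 FPKM, next 36.4 in psoas major). So did the arginine sensor CASTOR1 (38.2, next 26.6 in ovary), and neither lead reached 2-fold.

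Of 12 glutamine and glutamate enzymes, 11 were detected and 2 enriched (18.2%, against 6.49% of all detected genes), GPT2 in kidney (277 FPKM, next ovary 27.3) and ASNS. GPT2 makes alanine from glutamate. GLUL, glutamine synthetase, was highest in adipose tissue at 136.6 FPKM, and the glutaminase GLS2 stood at 28.2 in liver and 22.4 in ovary. Of 12 enzymes of branched-chain amino acid breakdown, all 12 were detected and 0 enriched (6.49% of all). BCAT2, which takes the first step, stood at 74.2 in heart and 1.72 in liver, the extremes of the 9 tissues. Of 8 genes of taurine, creatine and betaine synthesis, 7 were detected, 5 were highest in liver (5.67% of all) and 1, GAMT, was enriched (14.3%, against 6.49%). The median log2 difference of liver from the other classes was 4.58 over that list and -0.70 over all detected genes. Of 13 genes of serotonin, catecholamine and GABA handling, 7 were detected and 1 was enriched (14.3%, against 6.49% of all). This was DDC, which makes serotonin and dopamine, in kidney (213.4 FPKM, next liver 33.3).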

How the data were processed

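RNA was extracted with a phenol reagent and libraries were made with an Illumina TruSeq kit, per the labels' protocols. The authors deposited 1 table with a value per gene for each of the 10 libraries. Its header names no unit, and the deposited values were read as FPKM made by the authors, since they are not whole numbers and fall on steps that scale with gene length. TopHat2 2.1.0, StringTie 1.2.2 and the build Sscrofa11.1 are named in the submitters' processing notes. For the annotation release, the strandedness and any filter, the method is not given in the sources used here.

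Symbols came from an Ensembl ID table (58 members) or, for 1 member, SLC7A6, from an overlap of at least 0.5 of the longer gene with a RefSeq gene of Sscrofa11.1. In all 16571 genes were named. Values of 1 FPKM or more counted as detected, differences are on log2(FPKM + 1), so that they understate changes of low genes, and enrichment needed 5-fold over every other of 8 classes. Pairs of tissues were compared over genes at 1 FPKM or more in either of them (for heart, in heart or in both muscles), so genes low on both sides are left out. Alternatives changed the pseudocount, thresholds, detection level, naming and scaling. The rule for named genes covers members at 10 FPKM or more, enriched or past a pair threshold, and of each list the enriched genes and the highest 3 per tissue. Other members are named so that each is accounted for. The members and lists were chosen with earlier results of these data known. A few genes are not reported here, though the counts and sums over all members, markers and lists hold them. The pool enters no comparison between tissues. Analyses ran in Python 3.11.15 (pandas 2.3.3, numpy 2.4.6, scipy 1.17.1, matplotlib 3.10.9) and were tested on simulated data.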

Additional observations from a re-analysis of the deposited data

Results flagged for a closer look

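The pooled library, which enters none of the comparisons above, held SLC1A2 and SLC1A3 at levels that none of the 9 single tissues reached. SLC1A2, the main glutamate carrier of brain, stood at 7.52 FPKM in the pool, against 1.31 in heart, its highest single tissue. SLC1A3, the astrocyte glutamate carrier, stood at 46.5, against 16.0 in adipose tissue. Of the 53 members compared here, these 2 (3.77%) had an FPKM + 1 in the pool at least 2 times that of every tissue, where 126 of 15768 genes (0.799%) met the same rule. The label of the pool names 7 organs or tissues, all but adipose tissue of those sequenced singly, with muscle as 1 entry.

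The summed markers of nerve tissue were also higher in the pool than in any single tissue. The 7 neuron markers summed to 83.1 FPKM, with SNAP25 at 50.3, STMN2 at 22.6 and TUBB3 at 8.38 and 2 of 7 listed at 0, whereas the tissues ranged from 0.0815 to 49.2. STMN2 by itself was higher in spleen (47.4) than in the pool. The 4 matched Schwann cell markers, which oligodendrocytes share in part, summed to 308.9 in the pool, MBP giving 142, and to 25.1 or less in the tissues. Their part in the 2 values was not tested, and the pool is 1 library.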

How the results depend on the processing

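With 1 library per tissue, no library could be left out and only the choices of processing were varied. No paired analysis was possible because each tissue has 1 library and the labels give no replicate numbers. Naming by the Ensembl table alone, no filter on low values, a detection level of 0.5 FPKM and muscles kept as separate tissues left each count within 1.5 times. Of the 53 top classes, 12 differed with median-of-ratios size factors, 10 with quantile normalisation and 1 with equal library sums. None of the 11 enriched members had another top class under any alternative. The promoter and protein comparison was not run. At a detection level of 5 FPKM the members detected were 8 in heart, 11 in liver, 16 in spleen, 18 in lung, 19 in kidney, 11 in psoas major, 8 in longissimus dorsi, 11 in adipose tissue and 16 in ovary. Enriched members with a pseudocount of 0.1 were 1 in spleen, 2 in lung, 8 in kidney and 5 in ovary. With a pseudocount of 5 they were 1 in liver, 0 in lung and 0 in adipose tissue. At 3-fold they were 1 in spleen, 9 in kidney and 3 in ovary, and at 10-fold 1 in liver, 0 in lung, 3 in kidney and 0 in adipose tissue. Lung had 0 with median-of-ratios size factors and 0 with quantile normalisation. Between the 2 muscles, calls higher in longissimus dorsi were 0 with equal library sums, 2 with median-of-ratios size factors and 0 with a pseudocount of 5, and calls higher in psoas major were 4 with a pseudocount of 0.1. At 1.5-fold 4 were higher in psoas major and 2 in longissimus dorsi, and at 4-fold 0 and 0. Calls higher in heart than in muscle were 4 with a pseudocount of 0.1, 0 with 5, 4 at 2-fold and 0 at 8-fold, and calls higher in muscle 1 with a pseudocount of 5, 6 at 2-fold and 1 at 8-fold. Between kidney and liver, 6 were higher in liver with median-of-ratios size factors, and at 2-fold 21 were higher in kidney and 7 in liver. The highest SLC38 sum, 284 FPKM in liver as deposited, became 508.9 with median-of-ratios size factors. The highest SLC43 sum, 22.7 in kidney, became 20.79 in longissimus dorsi with those factors and 20.05 in adipose tissue with quantile normalisation. Enriched genes of the glutamine list, 2 as reported, were 1 with median-of-ratios size factors, 1 with a pseudocount of 5 and 0 at 10-fold. For taurine, creatine and betaine synthesis (1 as reported) they were 3 with median-of-ratios size factors, 2 at 3-fold and 0 at 10-fold. The ATF4 list (3) had 1 with a pseudocount of 5 and 1 at 10-fold, other carriers (1) had 2 at 3-fold, serotonin and GABA handling (1) had 2 at 3-fold and 0 at 10-fold, and the renal set (6 in any class) had 3 at 10-fold. A stricter or looser threshold changes these counts by its construction. For the rescalings the cause was not tested.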
